A study of Mus musculus with 9 samples.

Results

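The 9 genes described here encode proteins of the myelin sheath and of the oligodendrocytes that make it: Mbp, Mog, Mag, Mobp, Opalin, Aspa, Cnp, Cldn11 and Ermn. They were chosen with earlier results of these data known, and their rows were taken by gene symbol. These rows made up 43 of the 115220 transcripts in each deposited table and 9 of its 47593 gene symbols. A gene's level is the sum over its transcripts of FPKM, fragments per kilobase of transcript scaled to the mapped fragments of a library. Ribosome-associated RNA was isolated by RiboTag immunoprecipitation, the pull-down of a tagged ribosomal protein with the RNA on its ribosomes, and sequenced as stranded total RNA. The source was the medial prefrontal cortex (mPFC) of adult C57BL/6 mice, labelled as neurons. The 9 libraries formed 3 groups of 3, called sleep, enforced wake and enforced wake with Fxr1 below. The sleep and enforced wake groups were controls with green fluorescent protein (GFP) overexpressed in the mPFC, and differed in whether the mice slept or were kept awake. The third group had GFP-Fxr1 overexpressed in place of GFP and was also kept awake. Fxr1 binds RNA and is a relative of the fragile X protein Fmr1. No group was left without an overexpressed protein, and no group with Fxr1 slept. The labels do not name the promoter or Cre line behind the tagged ribosomes, nor the vector that carried GFP. Whether the 3 libraries of a group stem from separate animals is also not stated. The p-values therefore measure only the spread between samples, and that spread may be technical.

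Oligodendrocytes wrap axons of the central nervous system in many layers of their own membrane, which speeds conduction. Compact myelin is held together by basic proteins on its inner face, among them those of Mbp and Mobp, while Mag and Mog lie at the inner and outermost surfaces of the sheath. Cnp keeps channels of cytoplasm open within myelin, Cldn11 forms its tight junctions, Ermn is a cytoskeletal protein of mature oligodendrocytes, Opalin is a membrane glycoprotein of the same cells, and Aspa splits N-acetylaspartate, a neuronal metabolite, into acetate and aspartate. Mbp mRNA is carried along oligodendrocyte processes and translated next to the growing sheath. The Mbp locus also has an upstream start site whose products, the golli proteins, are made in some neurons and immune cells besides oligodendrocytes. The rest of the genes are known in the cortex mainly from oligodendrocytes.

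The label was checked before the genes were compared. Fxr1 stood at 31.7, 34.8 and 31.0 FPKM in sleep, at 34.8, 33.9 and 31.1 in enforced wake and at 91.1, 67.7 and 71.8 in the libraries labelled Fxr1, so that the targeted gene was highest where it was overexpressed. All 10 neuron markers on the list, among them Snap25, Syt1, Rbfox3 and Camk2a, had a mean of at least 0.5 FPKM, and summed to between 4268 and 4456 FPKM in the sleep libraries, between 3912 and 4081 in the enforced wake libraries and between 4149 and 4188 in the Fxr1 libraries. All 10 astrocyte markers were present too, with sums of 562 to 627, 644 to 768 and 511 to 589 FPKM. The 10 microglia markers summed to 32.8 to 49.7, 41.0 to 45.1 and 31.7 to 37.6 FPKM, and the 10 endothelial and mural markers to 24.1 to 30.8, 20.7 to 23.5 and 18.9 to 24.2 FPKM. The 3 Schwann cell markers together reached at most 3.94 FPKM. In RNA pooled over many cells, fewer cells of a type and less RNA per cell cannot be told apart. None of the 9 libraries holds RNA from before the pull-down. The share of these markers' RNA that came from tagged ribosomes was therefore not tested. Library depth, estimated from the smallest steps of the low values, was 2.99e+07 to 3.76e+07 fragments. Fxr1 library 1 stood apart on the first principal component, scoring 63.1 where the other 8 ranged from -30.6 to 13.1.

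Opalin and Aspa were the members that fell in enforced wake. Mobp held the most of the matches marked below among the members searched. For enforced wake against sleep it passed, like Mag, only when sleep library 2 was left out. The stretches upstream of these 3 genes are shown. They are the 250 bases before the RefSeq start site on GRCm38.p6, written 5′ to 3′ on the strand of the gene. The regions are chr19:41077114-41077363, minus strand, for Opalin, chr11:73324638-73324887, minus strand, for Aspa and chr9:120149492-120149741, plus strand, for Mobp. Capitals mark the letters ACAAAG or ACAATG, found in binding sites of Sox factors such as Sox10, or their reverse complements.
Opalin: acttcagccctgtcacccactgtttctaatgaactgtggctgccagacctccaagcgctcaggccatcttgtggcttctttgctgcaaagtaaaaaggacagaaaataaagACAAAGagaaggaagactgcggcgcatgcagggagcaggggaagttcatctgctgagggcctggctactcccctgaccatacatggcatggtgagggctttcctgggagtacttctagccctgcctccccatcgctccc
Aspa: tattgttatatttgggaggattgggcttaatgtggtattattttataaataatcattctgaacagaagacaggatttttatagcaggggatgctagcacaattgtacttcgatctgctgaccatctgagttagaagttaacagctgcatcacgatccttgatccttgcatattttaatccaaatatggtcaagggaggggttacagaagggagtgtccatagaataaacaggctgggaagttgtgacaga
Mobp: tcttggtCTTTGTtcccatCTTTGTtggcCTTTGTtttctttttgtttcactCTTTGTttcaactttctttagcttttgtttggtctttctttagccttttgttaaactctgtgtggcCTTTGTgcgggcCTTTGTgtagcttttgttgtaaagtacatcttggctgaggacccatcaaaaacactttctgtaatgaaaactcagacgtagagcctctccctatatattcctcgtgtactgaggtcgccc
Opalin held 1 such match, Aspa none and Mobp 6, and the Mobp matches did not overlap. Mbp was not among the 8 members searched. At least 1 match was present in 5 of the 8 and in 25.5% of the 27025 upstream stretches of the same length. A count of 6 or more was found in 1 of the 27025, which is Mobp. That cut-off was set by Mobp itself, the highest count among the 8 members, so its rarity is a description and not a test. The letters CTGGCAC or CTGGTAC, taken from the motif of the oligodendrocyte factor Myrf and searched on both strands, were in 3 of the 8 members, Mog, Mag and Cnp, and in 5.86% of all stretches; in none of the 3 printed here. These matches describe the letters and not binding.

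All 9 genes were measured in all 9 libraries. Averaged over the libraries, Mbp was the most abundant at 33.8 FPKM, followed by Mobp at 26.2, Cnp at 14.3, Cldn11 at 7.11, Mag at 4.41, Ermn at 3.01, Mog at 2.55, Aspa at 1.59 and Opalin at 0.813. Mbp lay at the 84.9th percentile of the genes with a mean of at least 0.5 FPKM, and Opalin at the 7.7th. Neighbours in this order were often closer than their spread. In sleep, Mobp at 19.8 ± 7.14 FPKM (SD, n = 3) was not separated from Cnp at 16.0 ± 1.24, nor Mog at 2.82 ± 0.958 from Ermn at 2.75 ± 0.75. Behind these levels stood an estimated 2361 to 4769 fragments per library for Mbp, but for Opalin only 87 to 97 in the sleep libraries, 20 to 26 under enforced wake and 19 to 35 with Fxr1.

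**Figure D1:**
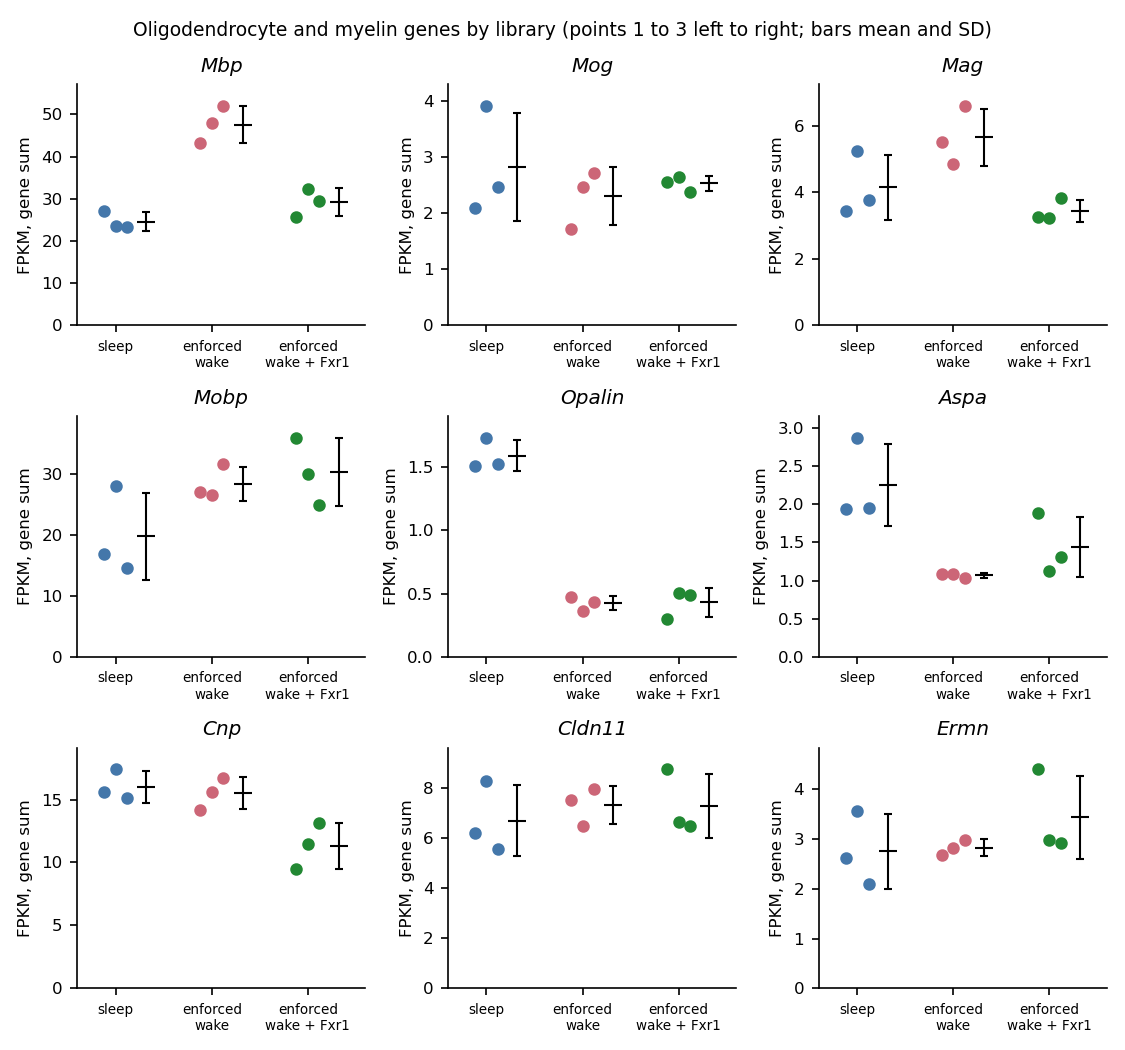
FPKM of each of the 9 genes (vertical axis, from 0, own scale per gene) in the 3 libraries of each group (points, replicate 1 to 3 from left to right) with the mean and SD (black). Mbp is highest in all 3 enforced wake libraries (43.2 to 51.9 FPKM), Opalin is highest in all 3 sleep libraries (1.51 to 1.73), and sleep library 2 is the highest of the sleep libraries for every gene but Mbp.

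Enforced wake was compared with sleep to ask how the genes differ between the kept-awake and the sleeping controls. Mbp rose to 1.93 times its mean in sleep, Opalin fell to 0.267 times and Aspa to 0.474 times. The other 6 genes did not pass the test, so the 9 genes did not move as a block. Their median difference was 0.05 on the log2(FPKM + 1) scale, against 0.00 over all genes tested. In limma, a linear model that shares its estimate of the spread across genes, 3 of 9 members passed at a Benjamini-Hochberg adjusted p under 0.05, 1 higher and 2 lower, where 28.3% of all 14673 genes tested passed (15.7% higher and 12.7% lower). The split over all genes, 2298 higher and 1858 lower, turned to 1519 higher and 1933 lower when a trend with GC content and length, described further on, was removed. The 3 members that passed were also those whose groups did not overlap, against 49.5% of all genes. The share of members called was thus near that of all genes.

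Mbp, which encodes myelin basic protein, was measured at 27.1, 23.5 and 23.3 FPKM in sleep libraries 1 to 3, at 43.2, 47.9 and 51.9 in enforced wake and at 25.7, 32.4 and 29.5 with Fxr1. Every enforced wake library lay above every other library, and the sleep and Fxr1 libraries overlapped. On the log2(FPKM + 1) scale, enforced wake exceeded sleep by 0.92, with a standard error (SE) of 0.09 and a limma adjusted p of 0.00235. The difference stayed between 0.84 and 0.99 under all 15 alternatives run, each of which kept the call. Within each library, Mbp exceeded the mean log2 level of the other 8 members by 2.37, 1.76 and 2.19 in sleep, by 3.03, 3.17 and 3.14 in enforced wake and by 2.22, 2.67 and 2.53 with Fxr1. The excess was therefore highest in the 3 enforced wake libraries. The other 8 members include Opalin and Aspa, which fell in enforced wake, so the excess also carries their fall. Products of the upstream Mbp start are also made in some neurons, so this may not be a contrast within oligodendrocytes alone.

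Opalin, the membrane glycoprotein of mature oligodendrocytes, was measured at 1.51, 1.73 and 1.52 FPKM in sleep, at 0.473, 0.362 and 0.434 in enforced wake and at 0.299, 0.505 and 0.487 with Fxr1. The sleep libraries were all at 1.51 FPKM or above and the other 6 at 0.505 or below. Its means of 0.423 FPKM in enforced wake and 0.430 with Fxr1 lay under the mean of 0.5 FPKM required for testing. Opalin therefore entered both comparisons with sleep only through the sleep group, where it was high. With no filter on low values, its difference for enforced wake against sleep was -0.86 (limma adjusted p = 0.00646). In enforced wake Opalin fell by 0.86 on that log2 scale (SE 0.08, limma adjusted p = 0.00168). The added 1 FPKM shrinks a change at this level, and with 0.1 in its place the difference was -1.69. Aspa, the enzyme that splits N-acetylaspartate, was measured at 1.94, 2.87 and 1.95 FPKM in sleep, at 1.08, 1.09 and 1.03 in enforced wake and at 1.88, 1.13 and 1.31 with Fxr1. The enforced wake libraries lay within a narrow band below all others. Aspa fell by 0.64 (SE 0.12, limma adjusted p = 0.0128). As gene sums, Opalin and Aspa kept their calls under all 15 alternatives run.

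Mag, Mog and Cldn11, which lie at the surfaces and junctions of the sheath, did not pass. Mag, an adhesion protein facing the axon, was measured at 3.45, 5.25 and 3.76 FPKM in sleep, at 5.51, 4.87 and 6.59 in enforced wake and at 3.26, 3.24 and 3.82 with Fxr1. Sleep library 2 was above the lowest enforced wake library, so these groups overlapped, and the difference was 0.38 (SE 0.15, limma adjusted p = 0.109). Mog, an adhesion protein of the outermost lamella, was measured at 2.09, 3.90 and 2.46 FPKM in sleep, at 1.72, 2.47 and 2.72 in enforced wake and at 2.55, 2.65 and 2.38 with Fxr1. Sleep library 2 held the highest of the 9 values, and the groups overlapped, with a difference of -0.19 (SE 0.20, limma adjusted p = 0.488). Cldn11, the tight junction protein, ranged from 5.58 to 8.76 FPKM over the 9 libraries and differed by 0.13 (95% interval -0.21 to 0.46).

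Among the inner and cytoplasmic proteins, Mobp, a small basic protein of compact myelin, was measured at 16.9, 28.0 and 14.6 FPKM in sleep, at 27.0, 26.5 and 31.6 in enforced wake and at 35.9, 30 and 24.9 with Fxr1. Sleep libraries 1 and 3 were below every other library, while sleep library 2 lay among the enforced wake libraries. The difference was 0.55 (SE 0.22, limma adjusted p = 0.109). Cnp, the phosphodiesterase of uncompacted myelin, was measured at 15.6, 17.4 and 15.1 FPKM in sleep, at 14.2, 15.6 and 16.7 in enforced wake and at 9.45, 11.5 and 13.1 with Fxr1. Sleep and enforced wake overlapped, with a difference of -0.05 (95% interval -0.25 to 0.15), and the 3 Fxr1 libraries were the lowest of the 9. Ermn, the cytoskeletal protein, ranged from 2.09 to 4.40 FPKM and differed by 0.05 between enforced wake and sleep (95% interval -0.29 to 0.39).

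Sleep library 2 was the highest sleep library in 8 of 9 members, all but Mbp, where 37.2% of all genes with a mean of at least 0.5 FPKM had their highest sleep value in that library. Mobp exceeded the mean of the other two sleep libraries by 0.79 on the log2(FPKM + 1) scale there, Mog by 0.58 and Ermn by 0.45, while Mbp was 0.09 lower, at -0.09. The same library was the highest of the sleep group in 13 of 17 other myelin proteins with a mean of at least 0.5 FPKM, 8 of 11 enzymes of myelin lipids and 7 of 12 other oligodendrocyte markers, but in 1 of 4 transcription factors of the lineage. Without sleep library 2, Mobp differed by 0.81 between enforced wake and sleep (limma adjusted p = 0.00885, range over 15 alternatives 0.00885 to 0.298) and Mag by 0.53 (limma adjusted p = 0.0355, range 0.0355 to 0.778), so that 5 of 9 members passed where 21.5% of all genes did. Sleep library 2 was singled out by the values of these same members, so this count is a description and not a test. With any other library of this comparison left out, 3 of 9 members passed. Mbp was 0.89, Opalin -0.82 and Aspa -0.51 without sleep library 2, and all 3 passed. The part that the amount of oligodendrocyte RNA in that library has in these values was not tested.

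**Figure D2:**
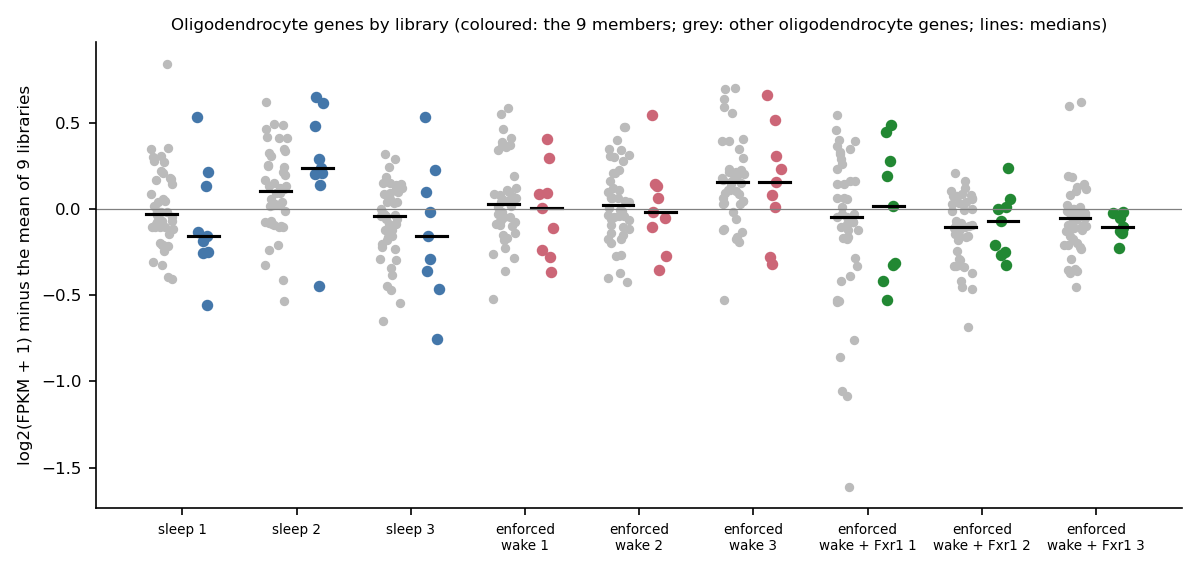
Deviation of log2(FPKM + 1) from the mean of the 9 libraries (vertical axis) for the 9 members (coloured by group) and 44 other oligodendrocyte genes with a mean of at least 0.5 FPKM (grey), by library, with medians as black lines. The members' median is highest in sleep library 2, at 0.24, against -0.16 in sleep libraries 1 and 3; the medians of the other genes are 0.11, -0.03 and -0.04 in sleep libraries 2, 1 and 3 and highest in enforced wake library 3, at 0.15 (members 0.16).

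Mbp was then followed by transcript, since its locus holds start sites 79.4 kb apart on the plus strand of chromosome 18 in the GENCODE M21 annotation of GRCm38. Of its 16 annotated transcripts, 4 began at the upstream start and 11 at the downstream start of the classic myelin basic proteins. Among the Mbp transcripts tested, the rise in enforced wake was called for 1, ENSMUST00000091789, a golli-type transcript from the upstream start with 4 exons and 195 coding residues. It held 52.0% of all Mbp FPKM and stood at 11.0, 12.3 and 11.8 FPKM in sleep, at 21.6, 22.2 and 22.1 in enforced wake and at 17.5, 20.4 and 19.5 with Fxr1. The 3 groups did not overlap, with sleep lowest and enforced wake highest. It rose by 0.86 in enforced wake (SE 0.06, limma adjusted p = 0.00795), where 3.62% of the 29116 transcripts tested passed. This call was kept in 12 of 13 alternatives and lost with the replicate number as a block (limma adjusted p = 0.151). With Fxr1 it was 0.66 above sleep (SE 0.08, limma adjusted p = 0.0189; 0.818% of transcripts passed). That call was kept in 7 of 13 alternatives only, with adjusted p-values from 0.0098 to 0.125. Its difference of -0.19 from enforced wake did not pass (95% interval -0.42 to 0.03, limma adjusted p = 0.294; 0.895% of transcripts passed). In the authors' deposited table its fold of sleep over enforced wake was 0.559, with a p-value of 0.0022 and a q-value of 0.405.

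The main transcript of the downstream start, ENSMUST00000132369, held 32.2% of Mbp FPKM and codes for 158 residues. It stood at 11.8, 6.34 and 7.24 FPKM in sleep, at 13.4, 17.1 and 22.8 in enforced wake and at 4.95, 8.37 and 5.97 with Fxr1. All enforced wake libraries were above all others, but their spread was wide. The difference was 1.0 between enforced wake and sleep (SE 0.28, limma adjusted p = 0.122), -1.33 between Fxr1 and enforced wake (SE 0.26, limma adjusted p = 0.137) and -0.33 between Fxr1 and sleep (SE 0.28, limma adjusted p = 0.602). Its interval against sleep, 0.29 to 1.71, contains the rise of the golli-type transcript, so a smaller response of the downstream start was not shown. ENSMUST00000080658, of the same start, stood at 0.917, 0.976 and 0.596, at 1.34, 1.66 and 2.01 and at 0.630, 0.835 and 0.697 FPKM in the same order of groups, again highest in enforced wake and not called. The 3 transcripts of either start that had at least 0.5 FPKM in a group but stayed at 1.17 FPKM or below were ENSMUST00000062446, ENSMUST00000102812 and ENSMUST00000114676, and none was called in a comparison where it was tested.

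Summed over all transcripts of a start site, the upstream start gave 12.9, 13.6 and 13.9 FPKM in sleep, 26.3, 26.6 and 23.2 in enforced wake and 18.5, 21.3 and 20.8 with Fxr1. The downstream start gave 14.1, 9.85 and 9.34, then 16.8, 21.1 and 28.4, then 6.98, 11.1 and 8.60 FPKM. The mean of enforced wake was thus 1.89 times that of sleep for the upstream and 1.99 times for the downstream start. With Fxr1 the mean was 0.795 times that of enforced wake for the upstream and 0.402 times for the downstream start. The upstream share of Mbp FPKM was 47.5%, 57.9% and 59.6% in sleep, 60.9%, 55.7% and 44.8% in enforced wake and 72.0%, 65.8% and 70.5% with Fxr1. The share was higher in all 3 Fxr1 libraries than in the other 6, while sleep and enforced wake overlapped. The trend with GC content and length, described further on, was removed for genes only and not for transcripts or start sites. Its part in these shares was not tested. Exact 2-sided permutation tests gave p = 0.8 for enforced wake against sleep and p = 0.1 for Fxr1 against each of the other groups, and 0.1 is the smallest p that 3 against 3 libraries allow.

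**Figure D3:**
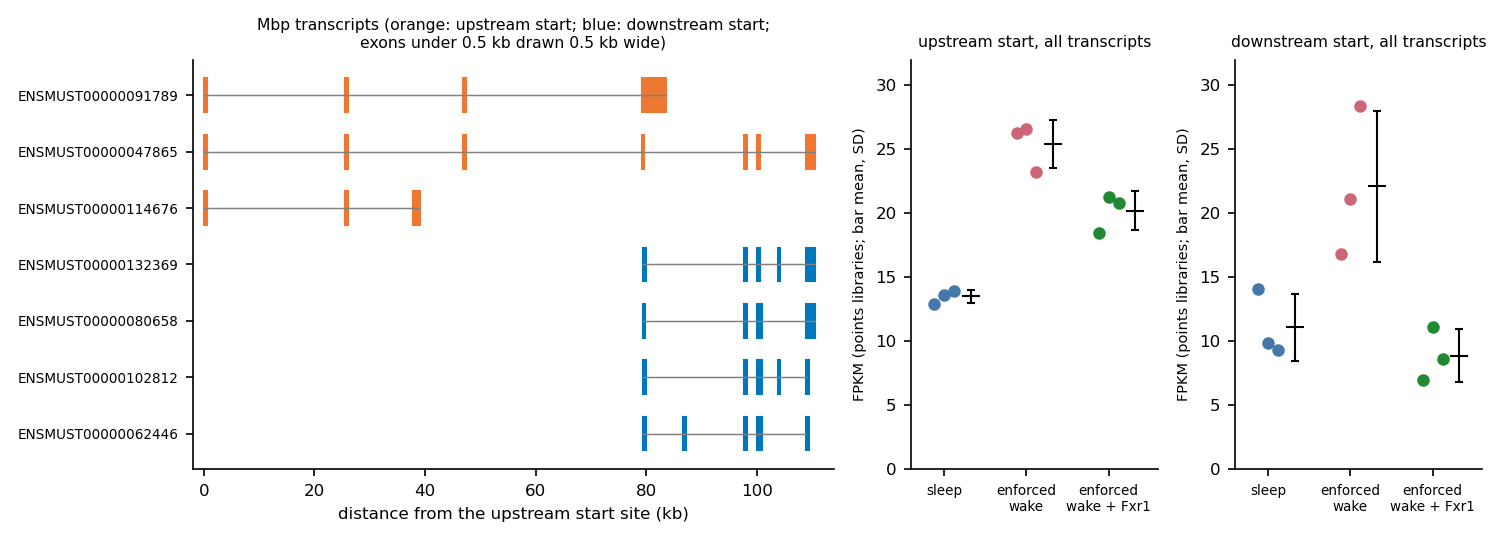
Left, exons of the 7 Mbp transcripts with a mean of at least 0.5 FPKM in any group, by distance from the upstream start in kb (orange, upstream start; blue, downstream start). Right, summed FPKM of all transcripts of each start by library (points) with mean and SD; the upstream sums of the Fxr1 libraries (18.5 to 21.3) lie between sleep and enforced wake, and their downstream sums (6.98 to 11.1) overlap those of sleep.

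These transcript values rest on an assignment of fragments that the tables do not let a reader check. The last exon of ENSMUST00000091789 makes up 4384 of its 4797 bases, 171 of them shared with the first exon of ENSMUST00000132369 and 3953 lying in the first intron of that transcript. The other 3 exons, which belong to the upstream start, hold 413 bases. Spliced golli RNA and unspliced RNA of the downstream start cannot be told apart within that last exon from FPKM alone. Estimates of single transcripts also varied within a group: ENSMUST00000047865, of the upstream start, stood at 3.74, 3.73 and 0.434 FPKM in the 3 enforced wake libraries, where the gene sum ran from 43.2 to 51.9. The main Aspa transcript, ENSMUST00000021119, was listed at 0 in enforced wake library 3, where ENSMUST00000184572 took 0.975 FPKM and the gene sum was 1.03 against 1.08 and 1.09 in the other two. In Mag, ENSMUST00000188569 was listed at 0 in enforced wake libraries 1 and 2 and at 2.51 FPKM in library 3. Opalin, Cldn11 and Ermn have a single annotated transcript, so that their gene and transcript values are the same. The fall of Opalin was also called among transcripts (limma adjusted p = 0.0231). Its fold of sleep over enforced wake in the authors' deposited table was 1.95, with a p-value of 0.000371 and a q-value of 0.232. That fold is not the ratio of mean FPKM, by which Opalin in enforced wake stood at 0.267 times sleep.

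Other features of the annotation touch single members. Of Mobp, 92.1% of FPKM was assigned to ENSMUST00000174193, annotated as a target of nonsense-mediated decay with 81 coding residues, which ran from 13.4 to 26.3 FPKM in the sleep libraries, from 23.7 to 29.1 under enforced wake and from 22.8 to 34.2 with Fxr1. Of Cnp, 12.3% was assigned to ENSMUST00000147403, a non-coding transcript running into Dnajc7 on the opposite strand, a gene at 62.7 to 74.9 FPKM. The remaining main transcripts were ENSMUST00000103120 of Cnp with 81.5%, ENSMUST00000102665 of Mog with 99.2% and ENSMUST00000021119 of Aspa with 77.3%. Of Mag, ENSMUST00000040548 held 37.4% and ENSMUST00000190638 held 17.8%. None of these transcripts passed in any of the 3 comparisons. The fall of Aspa in enforced wake, called for the gene sum, was thus not called for ENSMUST00000021119 (-0.82, SE 0.32, limma adjusted p = 0.225). That transcript was listed at 0 in enforced wake library 3. In the authors' deposited table its fold of sleep over enforced wake was 1.3, with a p-value of 0.567 and a q-value of 0.978.

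Enforced wake with Fxr1 was compared with enforced wake to ask what the overexpressed Fxr1 alters in kept-awake mice. No member passed: Mbp, Mag and Cnp were lower on average with Fxr1, at 0.613, 0.608 and 0.733 times their enforced wake means, and their groups did not overlap. In limma, 0 of the 8 members tested passed, where 0.412% of 14563 genes did, and Opalin fell below the filter. At an unadjusted p under 0.05 the count was 3 of 8, against 38.3% of all genes. The groups did not overlap in 4 of 8 members, Mbp, Mag and Cnp lower and Aspa higher, against 52.5% of all genes. The median difference of the 8 was 0.03, against -0.06 over all genes.

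The Mbp libraries with Fxr1, at 25.7 to 32.4 FPKM, all lay below the lowest of enforced wake, 43.2, and the difference was -0.69 (SE 0.12, 95% interval -0.97 to -0.41, limma adjusted p = 0.0678). Mag differed by -0.58 (SE 0.13, limma adjusted p = 0.0878) and Cnp by -0.42 (SE 0.13, limma adjusted p = 0.0932). Aspa differed by 0.23 (limma adjusted p = 0.221), since Fxr1 library 1, at 1.88 FPKM, was the highest of the 6. Opalin had means of 0.430 ± 0.114 FPKM with Fxr1 and 0.423 ± 0.0561 without (SD, n = 3 each), and these groups overlapped. Mog, Mobp, Cldn11 and Ermn differed by 0.11, 0.08, -0.01 and 0.20, with intervals that contain 0. Whether these genes passed differed between alternatives. In 1 fit on all 9 libraries, Mbp, Mag and Cnp passed with limma adjusted p-values of 0.0267, 0.0384 and 0.0429, but so did 23% of all genes. Without Fxr1 library 1, Mbp (-0.60, limma adjusted p = 0.0126) and Mag (-0.55, limma adjusted p = 0.036) passed and Cnp did not (0.0651), where 22.8% of all genes passed. Over the 15 alternatives the adjusted p ranged from 0.0126 to 0.249 for Mbp, from 0.036 to 0.856 for Mag and from 0.0429 to 0.9 for Cnp. In the authors' deposited table the main Mag transcript, ENSMUST00000040548, had a fold of 0.612 for Fxr1 over enforced wake, with a p-value of 0.00392 and a q-value of 0.302.

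Enforced wake with Fxr1 was also set against sleep, in a fit on all 9 libraries. Opalin was at 0.271 times and Cnp at 0.707 times their sleep means, and both passed, as 2 of 9 members, both lower. Of all 14617 genes tested, 7.79% passed, 4.58% lower. The groups did not overlap in 3 of 9 members, Opalin, Aspa and Cnp, all lower with Fxr1, against 32.7% of all genes. Opalin fell by 0.86 (SE 0.09, limma adjusted p = 0.00234) and kept its call in all 14 alternatives run. Its sleep libraries alone carried it past the filter in this comparison. Cnp fell by 0.47 (SE 0.12, limma adjusted p = 0.0499), but passed in only 2 of 15 alternatives, with adjusted p-values up to 0.246. Mbp differed by 0.23 (95% interval -0.02 to 0.49, limma adjusted p = 0.196), Aspa by -0.41 (limma adjusted p = 0.107) and Mobp by 0.62 (limma adjusted p = 0.118). The Fxr1 comparisons share libraries with the first comparison, so their values are given side by side and are not independent of each other.

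**Figure D4:**
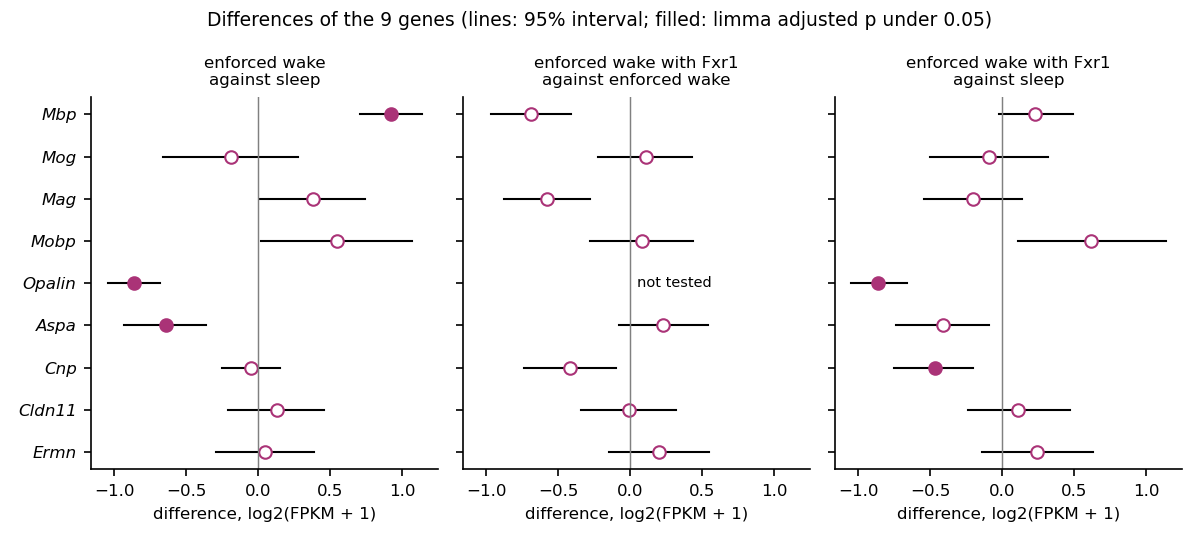
Differences of the 9 genes on the log2(FPKM + 1) scale (horizontal axis) in the 3 comparisons, with 95% intervals; filled points passed in limma at an adjusted p under 0.05. Mbp (0.92), Opalin (-0.86) and Aspa (-0.64) are filled for enforced wake against sleep, no gene for Fxr1 against enforced wake, and Opalin (-0.86) and Cnp (-0.47) for Fxr1 against sleep.

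Base composition moved with the groups. In each library the deviation of a gene from its mean over the 9 libraries was correlated, across 11514 genes, with its GC content, the share of G and C in its longest transcript. The Spearman coefficient was 0.65, 0.70 and 0.74 in the enforced wake libraries, -0.81, -0.42 and -0.26 in the Fxr1 libraries and 0.25, -0.39 and 0.17 in the sleep libraries. Genes are not independent replicates, so these are descriptions. With 57.6% GC, Mag lay in the fifth of genes richest in GC, whose median difference was 0.28 for enforced wake against sleep and -0.62 for Fxr1 against enforced wake, next to 0.38 and -0.58 for Mag itself. Cnp and Mobp, with 54.8% and 53.3%, were in the next group, with medians of 0.10 and -0.29. Mbp, with 51.0%, was in the middle group, whose medians were -0.01 and -0.04, and Aspa and Ermn, with 38.5% and 38.0%, in the lowest, with medians of -0.17 and 0.29. When the trend with GC content and length was removed from each library, enforced wake against sleep gave 0.84 for Mbp (limma adjusted p = 0.00235), -0.76 for Opalin (0.00194) and -0.44 for Aspa (0.0195), and all 3 still passed, with 23.6% of all genes. For Fxr1 against enforced wake the removal gave -0.54 for Mbp, 0.06 for Mag and 0.02 for Cnp, and none passed; 0.31% of all genes did. For Fxr1 against sleep it gave -0.22 for Cnp (limma adjusted p = 0.182), -0.56 for Aspa (0.00574) and 0.31 for Mbp (0.0441), so that Cnp lost its call and Aspa and Mbp gained one, where 12.8% of all genes passed. The removal also takes away any real change that follows GC content.

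**Figure D5:**
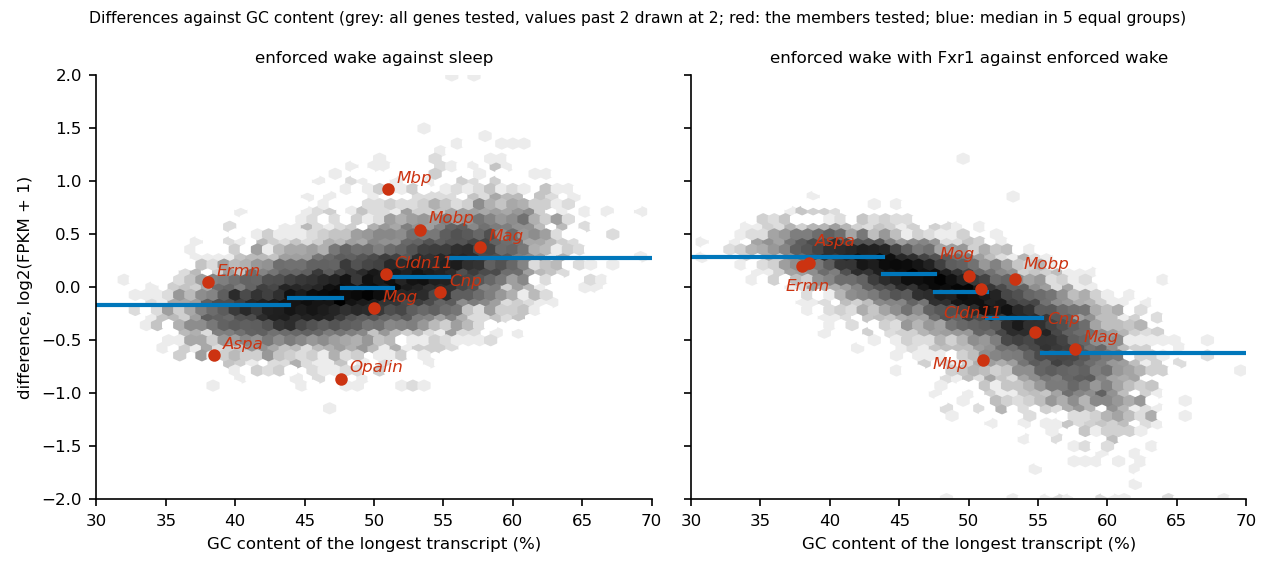
Difference on the log2(FPKM + 1) scale (vertical axis) against GC content of the longest transcript in percent (horizontal axis) for all genes tested (grey, darker with more genes) and the members tested (red); blue lines are medians of 5 groups of genes of equal size. In the Fxr1 comparison the medians run from 0.29 to -0.62 and Mag (-0.58) lies on them, while Mbp (0.92 and -0.69) stands away from its group's medians of -0.01 and -0.04 in both panels.

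The other genes of myelin and its cells were taken from lists, and the direction of the calls differed within and between lists. Of 18 other myelin proteins tested, 2 were higher and 1 lower in enforced wake than in sleep, with a median difference of 0.04, where 28.3% of all genes passed, 15.7% higher and 12.7% lower. The same shares stand beside each list count for this comparison. Omg, a glycoprotein at the node that neurons make as well, fell from 78.7 ± 3.86 to 46.0 ± 2.76 FPKM (SD, n = 3 each; difference -0.76, limma adjusted p = 0.00165). Cryab, a small heat shock protein, rose by 0.52 and Anln, a septin-binding protein, by 0.35. None of 11 enzymes of myelin lipids passed in limma in this comparison. Of 5 transcription factors of the lineage tested, 2 were higher and none lower, with a median of 0.16; with the GC trend removed 1 was higher and 1 lower, with a median of -0.23. Sox8 rose from 5.77 ± 0.648 to 11.1 ± 0.282 FPKM (SD, n = 3 each; difference 0.85, limma adjusted p = 0.00235). Myrf, which switches on myelin genes, rose by 0.43 from 0.526 to 1.05 FPKM (limma adjusted p = 0.0259), but by 0.07 with the GC trend removed, which did not pass. Sox10 and Olig2, which specify the lineage, differed by 0.11 and 0.02 and did not pass. With the GC trend removed they stood at -0.33 (limma adjusted p = 0.079) and -0.31 (0.0447), so that Olig2 passed as lower.

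Of 12 other oligodendrocyte markers tested in the same comparison, in which 28.3% of all genes passed, Ptgds (0.51) and Lpar1 (0.32) were higher and Tmem88b (-0.35) was lower. Among 4 genes of precursors and newly formed oligodendrocytes, Gpr17, a receptor of cells about to mature, rose by 0.47 and Lhfpl3 fell by 0.39. Of 7 genes for carriers of Mbp mRNA, Hnrnpf, an RNA-binding protein, rose by 0.72 and Ckap5, a microtubule protein, fell by 0.27. Of 8 axonal partners of myelin, 3 were higher and 1 lower, among them Nfasc (0.50) and Cntn2 (0.48), adhesion proteins at and beside the node, and Rtn4r (0.71), a receptor for myelin inhibitors that include Mag. With the GC trend removed, Nfasc kept its call at 0.24 and the call was lost for Cntn2 (0.17), Rtn4r (0.28), Ptgds (0.31), Gpr17 (0.29), Tmem88b (-0.32) and Lhfpl3 (-0.20). Markers of other cells moved in part: 2 of 10 astrocyte markers were higher, Gjb6 by 1.12 and Glul by 0.47, and 2 of 9 endothelial and mural markers were lower. Of 10 neuron markers, Tubb3 was higher by 0.44, and Syt1 (-0.25) and Snap25 (-0.22) were lower; with the GC trend removed Syt1 alone of these passed (-0.18). Of 10 microglia markers, Tmem119 was higher by 0.45 (limma adjusted p = 0.0188), and by 0.12 with the GC trend removed, which did not pass. Their part in the differences of the 9 genes was not tested.

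With Fxr1 against enforced wake, none of the listed oligodendrocyte genes passed in limma, where 0.412% of all genes did. Without Fxr1 library 1, 5 of 17 other myelin proteins passed, 1 higher and 4 lower, as did 3 of 11 lipid enzymes, 2 higher and 1 lower, and 2 of 4 transcription factors and 2 of 13 other markers, all lower, where 22.8% of all genes passed. Of the axonal partners, Lingo1, a coreceptor for myelin inhibitors, fell from 71.1 ± 7.44 to 18.3 ± 2.05 FPKM (SD, n = 3 each; difference -1.90, limma adjusted p = 0.00888), and by 1.25 with the GC trend removed, which did not pass. Its sleep libraries stood at 45.9, 18.3 and 44.0 FPKM, with library 2 at the level of the Fxr1 group. Of 10 astrocyte markers Gfap alone passed, lower by 1.62, and of 10 microglia markers Trem2 alone, lower by 0.89. With the GC trend removed both kept their calls, at -1.12 and -0.74. Trem2 was low throughout, at 1.17 FPKM in enforced wake and 0.17 with Fxr1, and its sleep library 2 stood at 0.301. With Fxr1 against sleep, where 7.79% of all genes passed, Pllp, a myelin protein, fell by 0.64, Car2, the carbonic anhydrase of oligodendrocytes, by 0.50, Hspa2 by 0.44 and Olig2 by 0.35, while Sox8 rose by 0.54 and Lpar1 by 0.36. With the GC trend removed, Sox8 (0.76) and Lpar1 (0.35) kept their calls, while Pllp (-0.41), Car2 (-0.41), Hspa2 (-0.22) and Olig2 (0.02) did not.

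The genes whose log2(FPKM + 1) was most like that of Mbp over the 9 libraries, among 8745 genes with a mean of at least 5 FPKM, were Mt2, with a Pearson r of 0.988, Lingo3 (0.983), Zfand3 (0.978), Mt1 (0.976) and Adgra1 (0.972). None of them is an oligodendrocyte gene on the lists. Mt2, a metallothionein, stood at 8.65 ± 0.969 FPKM in sleep, 28.3 ± 7.58 in enforced wake and 11.7 ± 2.05 with Fxr1 (SD, n = 3 each), high in the same group as Mbp. For Opalin, genes among the most alike were Vps4a (0.981), Arsb (0.978), Dync2li1 (0.978) and Lancl1 (0.974), all of them likewise highest in sleep on average. The 9 points of each correlation share their group means and their libraries, so these are descriptions.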

How the data were processed

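RiboTag RNA of 9 libraries was sequenced, 3 per group, and groups were taken from the sample labels. The authors deposited 2 tables, which set the enforced wake controls beside the sleep libraries and beside the Fxr1 libraries. Both list 115220 transcripts with the authors' FPKM per library, per the file headers. The enforced wake values are identical in both, so the 9 libraries were set side by side. The tables also hold the authors' fold change (a ratio), p-value and q-value per transcript, per the file headers; the tool for these was not given in any source used here. HISAT2 2.1.0, SAMtools 1.9, StringTie 1.3.4d and the build GRCm38 are named per the submitters' processing notes. FPKM are relative to the library total, and a transcript's value can shift to another transcript that shares its exons.

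Genes were tested as the sum of their transcripts' FPKM. The scale was log2(FPKM + 1) and the test limma 3.58.1, run in R 4.3.3 (eBayes with trend, 2-sided, Benjamini-Hochberg over all genes or transcripts, threshold 0.05), keeping those with a mean FPKM of at least 0.5. The first 2 comparisons were fitted on their own 6 libraries and Fxr1 against sleep on all 9. Tables and figures were made with Python 3.11.15. The fit was tested on simulated data. Depth was estimated from FPKM times length in low genes; 95% intervals come from limma.

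The members and gene lists were chosen with earlier results of these data known. Named were the 9 members, Sox10, Olig2 and Fxr1; from each list up to 3 genes of smallest p per comparison that passed with groups not overlapping; transcripts holding at least 10% of a member, and Mbp transcripts of at least 0.5 FPKM in a group; and the 5 genes most like Mbp and Opalin among those with a mean of at least 5 FPKM. Some genes that this rule names are not reported here. The transcripts of Mobp, Mag and Aspa that are named for a shift between transcripts beyond this rule were chosen after their values were seen. Of 47729 gene identifiers, 47310 were in the GENCODE M21 annotation. Upstream sequences are from RefSeq (8 members searched, all but Mbp). Alternatives were the pseudocount (0.1), the filter (none, or a mean of at least 1), library scaling (protein-coding totals, or the median of ratios), removal of the GC and length trend with splines (5 degrees of freedom) in each library, the libraries in the fit, the replicate number as a block, and leaving out each library.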

Additional observations from a re-analysis of the deposited data

How the results depend on the processing

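The calls of Mbp, Opalin and Aspa for enforced wake against sleep and of Opalin for Fxr1 against sleep were kept in every alternative that tested them. Leaving out 1 library at a time gave 3 to 5 members called for enforced wake against sleep, 0 to 2 for Fxr1 against enforced wake and 1 to 2 for Fxr1 against sleep. Of all genes, at least 14511 tested per fit, the same fits called 1822 to 3631, 2 to 3316 and 248 to 1440. The 5 members were called without sleep library 2, where 21.5% of all genes passed. For Fxr1 against enforced wake, the 2 were called without Fxr1 library 1, where 22.8% of all genes passed. The number of Fxr1 against enforced wake calls was 3 in a fit on all 9 libraries, where 23% of all genes passed. For Fxr1 against sleep, 1 member was called with the fit on the 6 libraries compared, with no filter and with a pseudocount of 0.1. The same held with either rescaling and with the replicate block, and Cnp was lost in all of these. With a mean FPKM of at least 1, 1 member was called and Opalin lay below the filter. Of all genes, these fits called 183 to 1126.

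Counts over all genes moved more, and the cause was not tested. For enforced wake against sleep they were 4156 as reported, 1398 in 1 fit on all 9 libraries and 1822 to 3631 with 1 library left out; transcripts numbered 1055, 440 in 1 fit on all 9, 346 with no filter and 256 to 611 with 1 left out. For Fxr1 against enforced wake the genes numbered 60, 3366 in 1 fit on all 9, 37 with a mean of at least 1, 4 with no filter, 29 with a pseudocount of 0.1, 36 scaled to protein-coding totals and 2 to 3316 with 1 left out, the highest without Fxr1 library 1; transcripts numbered 258, 158 with no filter and 167 to 787 with 1 left out. For Fxr1 against sleep the genes numbered 1138, 1871 with the GC trend removed, 183 in a fit on 6 libraries and 248 to 1440 with 1 left out; transcripts numbered 237, 70 in a fit on 6, 147 with no filter and 96 to 328 with 1 left out.

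Among the 9 members and the Mbp transcripts, directions turned only where no call stood; of the listed genes, Olig2 for Fxr1 against sleep, called at -0.35, turned to 0.02 with the GC trend removed. With the GC trend removed, with or without the block, Fxr1 against enforced wake gave 0.06 for Mag, -0.12 for Aspa, 0.02 for Cnp, 0.11 for Cldn11 and -0.16 for Ermn, and Fxr1 against sleep gave 0.03 for Mog and 0.15 for Mag. Cldn11 against enforced wake was 0.06 scaled by median of ratios and 0.04 scaled to protein-coding totals.

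With 1 library left out, the range crossed 0 for enforced wake against sleep in Mog (-0.33 to 0.00), Cnp (-0.10 to 0.01) and Ermn (-0.08 to 0.20), for Fxr1 against enforced wake in Mog (-0.03 to 0.20), Mobp (-0.05 to 0.21) and Cldn11 (-0.13 to 0.06), and for Fxr1 against sleep in Mog (-0.22 to 0.11), Cldn11 (-0.01 to 0.26), ENSMUST00000062446 (-0.01 to 0.10) and ENSMUST00000102812 (-0.08 to 0.10).

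Removing the GC trend turned the split of all calls from 2298 higher and 1858 lower to 1519 and 1933 for enforced wake against sleep and from 468 and 670 to 1050 and 821 for Fxr1 against sleep, and moved it from 12 and 48 to 18 and 27 for Fxr1 against enforced wake. Rescaling moved it too. For Fxr1 against sleep 468 genes were higher and 670 lower, but 624 and 502 scaled to protein-coding totals and 644 and 443 scaled by median of ratios. For Fxr1 against enforced wake the split was 12 and 48, against 11 and 25 scaled to protein-coding totals.

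Same-numbered libraries did not deviate together over the genes (correlations of -0.26 to 0.18). With 3 libraries per group, these correlations cannot show that the replicate numbers carry no pairing. With the replicate block, genes called numbered 3116, 1 and 372 in the 3 comparisons, and 2234 and 1 in the first and second with the GC trend removed as well; transcripts numbered 11, 0 and 12. The rise of ENSMUST00000091789 in enforced wake kept its size of 0.86 but not its call with the block (limma adjusted p = 0.151, range over 13 alternatives 0.00431 to 0.151). Depth limits Opalin most, with 19 to 35 estimated fragments in the kept-awake groups.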
